A study of Mus musculus with 6 samples.

Results

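A set of 9 genes of the Mef2, Six-family and Eya groups of muscle regulators was followed in mouse adipose-derived stromal cells (ADSCs). The cells were labelled control or had been co-cultured with regulatory T cells (Treg). The genes were Mef2a, Mef2b, Mef2c, Mef2d, Six2, Six4, Six5, Eya1 and Eya4, chosen by symbol, and all 9 were found among the 22186 genes of the deposited table. ADSCs are stromal cells obtained from fat tissue, from which fat, bone, cartilage and other mesenchymal cells can be derived in culture. Primary ADSCs of WT genotype were sequenced as 3 libraries labelled control and as 3 libraries of ADSCs after 48 h of Treg co-culture. The labels give each library a batch from 1 to 3, so that each batch holds 1 library of either group, and state neither strain, sex nor age, nor whether replicates came from separate animals or cultures. They do not say either whether the cells were in contact during co-culture. The p-values rest on the variation among these 6 libraries, which may be technical only. No arm held ADSCs with other T cells, so what is particular to Treg and what comes with any co-culture cannot be told apart.

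Mef2 proteins are DNA-binding factors of the MADS-box class that bind an AT-rich site in the promoters of muscle genes. They act beside the myogenic helix-loop-helix factors Myod1 and Myog, are held inactive by class IIa histone deacetylases, and are released by calcium-dependent kinases and by p38 and ERK5 kinases. Six-family proteins are homeodomain factors that bind the MEF3 site of muscle promoters, and Eya proteins are their coactivators, which carry a phosphatase domain and bind no DNA themselves.

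Values were deposited as TPM, a share of all transcripts corrected for gene length, so levels can be compared between genes. TPM keeps no sequencing depth, which is therefore unknown, and the number of genes listed at 0 was 6566 to 7073 per library. The labelled cell type was checked against its markers. All 10 adipose stromal markers were present, with a summed level of 7806 to 8386 TPM in controls and 7073 to 7442 TPM after co-culture. Col1a1 made up most of that sum (6341 to 6919 TPM and 5762 to 6103 TPM). Of the 10, 7 fell and 1 rose past the threshold used below. Skeletal muscle markers were present too, summing to 799 to 837 TPM in controls and 2255 to 2306 TPM after co-culture. Acta1 made up most of their sum (519 to 545 TPM and 1412 to 1453 TPM), and all 9 tested of 10 rose. At the same threshold, 18% of all genes tested fell and 19.8% rose. Of 10 T cell markers, 7 (Cd3e, Cd3d, Cd3g, Cd4, Il2ra, Ctla4 and Cd2) were listed at 0 in every library, and all 10 summed to 2.92 to 3.45 TPM in controls and 3.10 to 3.72 TPM after co-culture, most of it Ikzf2. Treg co-culture 1 held 98.8 TPM of 7 adult heart and liver markers, against at most 1.10 TPM in any other library. For members that passed the test below, the log2 fold change is also given without that library. For most genes of the lists it is not. Fewer cells of a type and less RNA per cell cannot be told apart in these bulk libraries.

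Mef2a and Mef2c rose modestly after Treg co-culture, and Six5 fell. In mean TPM, Mef2a was 1.16-fold and Mef2c 1.19-fold higher, and Six5 was 1.33-fold lower. Mef2d, Six4 and Eya4 were higher in mean TPM without passing the test. Mef2b, Six2 and Eya1 lay below the filter of a mean of 1 TPM over the 6 libraries and were not tested. The test was limma on log2(TPM + 1) over 12405 genes, with a Benjamini-Hochberg adjusted p threshold of 0.05, and it called 37.8% of all genes tested, 19.8% higher and 18% lower. Against that background, 3 of 6 members tested were called, 2 higher and 1 lower. The groups did not overlap for any of these 6 members, nor for Six2 and Eya1, and they did overlap for Mef2b. Among all genes tested, 49.3% had groups that did not overlap.

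**Figure D1:**
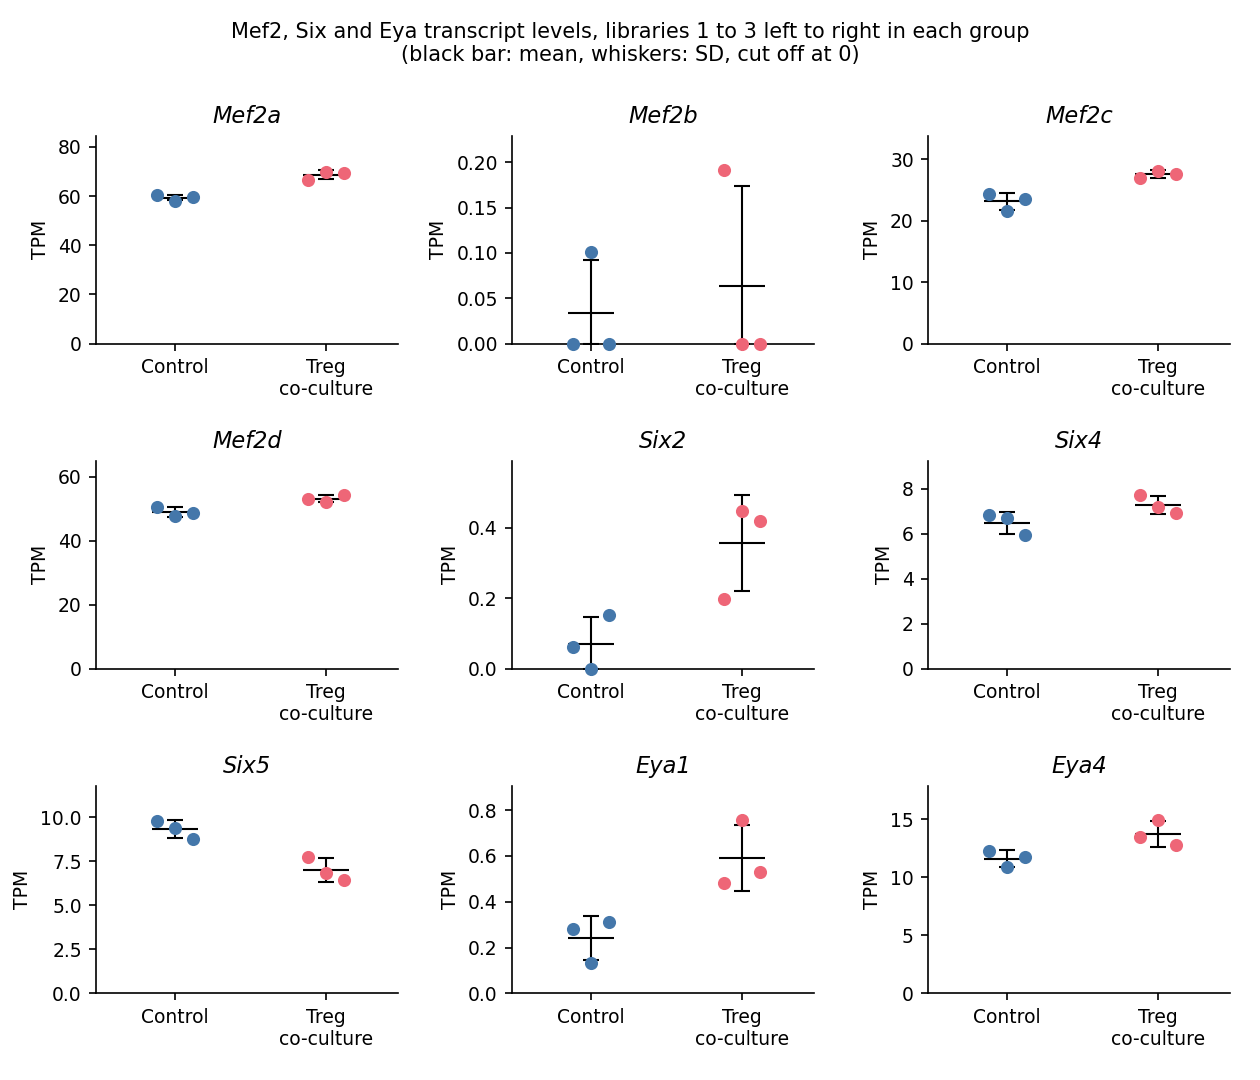
Transcript level (TPM, linear axes starting at 0) of each of the 9 genes in control libraries 1 to 3 (blue) and Treg co-culture libraries 1 to 3 (red), with the mean (black bar) and SD (whiskers). For Six5 all 3 co-culture points lie below the controls, and for all other genes except Mef2b they lie above.

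Mef2a, broadly expressed in muscle and other tissues, had the highest level of the 9 and ranked 2670 of 22186 genes by mean TPM. It was measured at 60.3, 58.2 and 59.8 TPM in the controls, given here in the order of replicates 1 to 3, and at 66.6, 69.9 and 69.5 TPM in the Treg co-culture libraries. All co-culture libraries thus stood above all controls, with means of 59.4 ± 1.11 and 68.7 ± 1.78 TPM (SD, n = 3 each). The log2 fold change was 0.21 (SE 0.04, 95% interval 0.12 to 0.29, limma adjusted p = 0.00237). Without Treg co-culture 1 it was 0.23.

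Mef2c, the paralog needed for sarcomere assembly in muscle, stood at a lower level. Its TPM were 24.3, 21.5 and 23.6 in controls and 27.0, 28.1 and 27.6 in Treg co-culture 1 to 3. The lowest value was that of control 2, and the groups did not overlap. Mean levels were 23.1 ± 1.43 and 27.6 ± 0.578 TPM (SD, n = 3 each), with a log2 fold change of 0.25 (SE 0.06, 95% interval 0.11 to 0.38, limma adjusted p = 0.00918). The log2 fold change was 0.26 without Treg co-culture 1 and 0.20 without control 2, past the threshold each time.

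The promoters of the members were searched for sites of the factors discussed here. Those of Mef2a and Mef2c, the called members that rose, are shown. RefSeq windows from 250 bases before to 50 bases after a start were available for 8 of 9 genes, 12 windows in all. The E-box CANNTG, which myogenic helix-loop-helix factors bind, the MEF3 site TCAGGTT, the MEF2 site and the CArG box of serum response factor were searched on both strands. The sequences run 5′ to 3′ to base 30 after the start, with matches in capitals. Mef2a is on the minus strand of GRCm38.p6 at chr7:67372829-67373108, and its capitals mark a MEF2 site. Mef2c is shown at its most upstream start, on the plus strand at chr13:83503784-83504063, where the first capitals mark a MEF3 site read on the opposite strand and the other capitals mark E-boxes.
Mef2a: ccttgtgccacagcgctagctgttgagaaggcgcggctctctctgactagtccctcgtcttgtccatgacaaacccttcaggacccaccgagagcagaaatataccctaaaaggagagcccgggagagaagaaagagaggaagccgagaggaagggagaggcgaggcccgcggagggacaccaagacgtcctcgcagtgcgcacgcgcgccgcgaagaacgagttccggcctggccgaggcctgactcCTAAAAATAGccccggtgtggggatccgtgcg
Mef2c: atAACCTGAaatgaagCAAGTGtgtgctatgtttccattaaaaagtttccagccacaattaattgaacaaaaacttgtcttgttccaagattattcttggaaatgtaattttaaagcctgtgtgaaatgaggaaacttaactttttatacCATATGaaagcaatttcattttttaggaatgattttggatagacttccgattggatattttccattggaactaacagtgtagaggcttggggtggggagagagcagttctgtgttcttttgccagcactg
The MEF2 site of Mef2a, CTAAAAATAG, ran from base -2 to base 8 and so spanned the annotated start. It was the 1 MEF2 site in the 12 windows, and 3.19% of all 32851 RefSeq windows of this length held one. The MEF3 site of Mef2c lay at bases -248 to -242 of its most upstream window. The other Mef2c windows held no MEF3 site, and 1 of them held no motif searched. Six4 held the other MEF3 match, at -97 to -91 of 1 of its 2 overlapping windows. Of all windows, 4.07% held a MEF3 site. E-boxes were found in windows of Mef2b, Mef2c and Eya4, and in 72.3% of all windows. No CArG box was found in the 12 windows, against 1.63% of all. A match describes the letters only and does not show binding.

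Mef2d, the other abundant paralog of the family, had TPM of 50.7, 47.6 and 48.8 in controls and 53.2, 52.1 and 54.2 in Treg co-culture 1 to 3. The groups did not overlap, but the gap between the highest control and the lowest co-culture value was smaller than the SD of the controls (1.56 TPM, n = 3). Its log2 fold change of 0.11 (SE 0.04, 95% interval 0.02 to 0.21) had a limma adjusted p of 0.0613, above the threshold. Without control 1 it passed (0.14, limma adjusted p = 0.0441). Mef2b, known chiefly from germinal centre B cells, was listed at 0 in 4 of 6 libraries and at 0.101 TPM in control 2 and 0.191 TPM in Treg co-culture 1. B cell markers summed to at most 0.16 TPM in any library.

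Summed over the 4 paralogs, Mef2 transcripts came to 135, 127 and 132 TPM in controls and 147, 150 and 151 TPM in Treg co-culture 1 to 3, a mean 1.14-fold higher. The composition of the sum moved little. Mef2a made up 44.6% to 45.7% in controls and 45.3% to 46.6% after co-culture, and these ranges overlapped. Mef2c made up 16.9% to 17.9% in controls and 18.3% to 18.7% after co-culture, and Mef2d 36.9% to 37.5% and 34.7% to 36.2%, without overlap in either case. An exact two-sided permutation test gave p = 0.1 for the shares of Mef2c and of Mef2d and p = 0.2 for that of Mef2a, among 7 paralog shares tested. The smallest p that 3 against 3 libraries allow is 0.1, so no share could pass 0.05.

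Six5 is a broadly expressed homeodomain factor whose gene lies next to Dmpk, the myotonic dystrophy kinase gene. Its TPM were 9.77, 9.39 and 8.77 in controls and 7.73, 6.80 and 6.42 in Treg co-culture 1 to 3. Every co-culture library was below every control, with means of 9.31 ± 0.509 and 6.98 ± 0.676 TPM (SD, n = 3 each). The log2 fold change was -0.37 (SE 0.09, 95% interval -0.58 to -0.16, limma adjusted p = 0.011), and -0.44 without Treg co-culture 1. In absolute size it exceeded the log2 fold changes of 83.8% of the genes tested, against 69.8% for Mef2c and 62.9% for Mef2a. Dmpk fell as well, by 0.15 on the log2 scale (limma adjusted p = 0.00383). The RefSeq spans of Dmpk and Six5 do not overlap and are 722 bases apart. The promoter of Six5, the called member that fell, is shown beside those of Mef2a and Mef2c (plus strand of GRCm38.p6, chr7:19094294-19094573).
Six5: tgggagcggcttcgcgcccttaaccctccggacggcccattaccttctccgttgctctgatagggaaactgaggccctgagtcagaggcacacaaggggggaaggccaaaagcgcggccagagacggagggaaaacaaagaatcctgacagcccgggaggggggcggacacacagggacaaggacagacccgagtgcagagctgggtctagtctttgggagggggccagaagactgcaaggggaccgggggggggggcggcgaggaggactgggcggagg
The Six5 window held none of the 4 motifs searched. Neither did those of Mef2d, which was not called, and Six2, which was not tested. The Six5 window had a GC content of 66%, against 62.3% for Mef2a and a median of 52.7% over all windows. The Mef2c windows had 35.7% at the upstream start shown, and 47% and 48.3% at the others.

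Six4, which acts with related homeodomain factors at the promoters of myogenic genes, moved less than its paralog. Its TPM were 6.85, 6.70 and 5.94 in controls and 7.71, 7.19 and 6.95 in Treg co-culture 1 to 3, so the groups did not overlap, by a margin of less than 0.1 TPM. The log2 fold change of 0.15 had a 95% interval of -0.07 to 0.36 and did not pass (limma adjusted p = 0.260). Six2, a factor of kidney progenitors and mesenchyme, was listed at 0.062, 0 and 0.151 TPM in controls and 0.199, 0.448 and 0.421 TPM in Treg co-culture 1 to 3, and was too low to be tested. Six5 exceeded Six4 in 3 of 3 controls, with ratios of 1.43, 1.40 and 1.48, whereas in Treg co-culture 1 to 3 the ratios were 1.002, 0.946 and 0.924. Six4 was thus the higher in 2 of 3 co-culture libraries, and Six5 was still just above it in Treg co-culture 1. After co-culture the ranges of the 2 genes overlapped. Of the summed TPM of Six2, Six4 and Six5, Six5 made up 58.6% ± 0.336 in controls and 47.7% ± 1.52 after co-culture (SD, n = 3 each; exact permutation p = 0.1, the smallest possible).

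**Figure D2:**
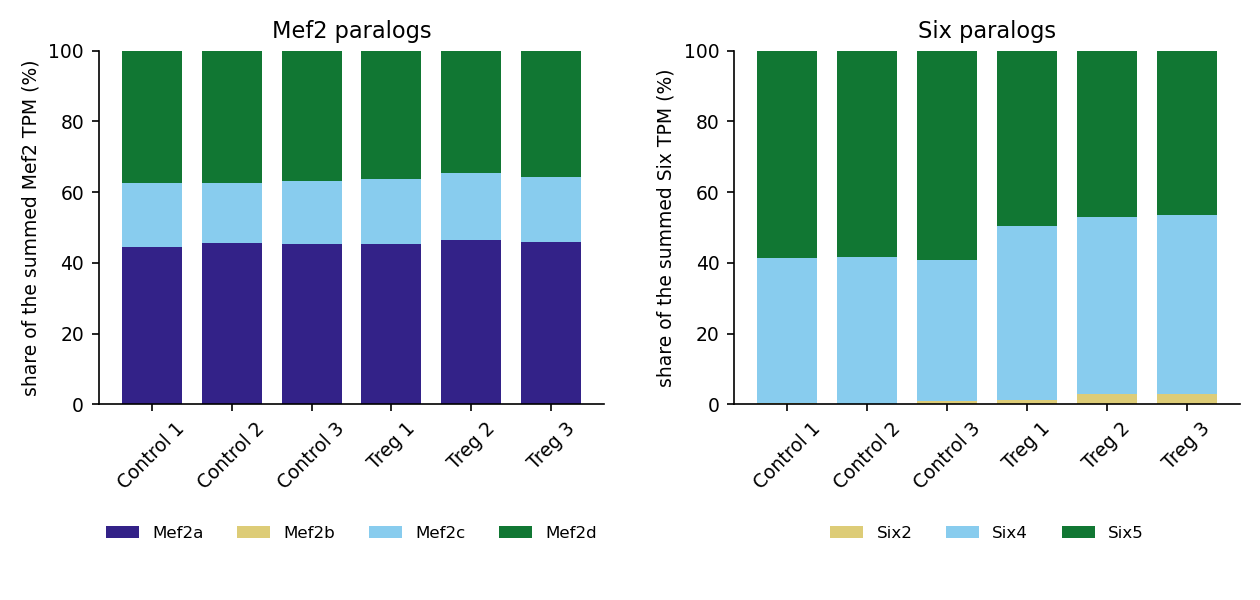
Share (%) of each paralog in the summed TPM of the 4 Mef2 genes (left) and of the 3 Six-family genes followed here (right), 1 stacked bar per library. The Six5 share is 58.4% to 59.0% in controls and 46.5% to 49.4% after co-culture, while the Mef2 shares differ by under 2 percentage points between group means.

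Eya4, a coactivator of Six-family factors, had TPM of 12.2, 10.9 and 11.7 in controls and 13.5, 14.9 and 12.8 in Treg co-culture 1 to 3. The groups did not overlap, and Treg co-culture 2 was the highest. Its log2 fold change of 0.22 (SE 0.08, 95% interval 0.04 to 0.41) missed the threshold (limma adjusted p = 0.0570) and passed it without Treg co-culture 3 (0.27, limma adjusted p = 0.0482). Eya1, the paralog known for ear and kidney development, was far lower, at 0.282, 0.133 and 0.311 TPM in controls and 0.484, 0.756 and 0.531 TPM in Treg co-culture 1 to 3. With no filter on low values, Eya1 (log2 fold change 0.36, limma adjusted p = 0.0332) and Six2 (0.34, limma adjusted p = 0.0396) were called higher and Mef2b was not (limma adjusted p = 0.803).

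By mean level, the order in controls was Mef2a, Mef2d, Mef2c, Eya4, Six5, Six4, Eya1, Six2 and Mef2b. Neighbours in this order had separate ranges down to Eya1, while Eya1 and Six2, and Six2 and Mef2b, overlapped. After co-culture Six4 and Six5 changed places and overlapped, and all other neighbours had separate ranges.

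The fold changes of the 6 members tested were small beside those of the myogenic factors they work with. The upper end of the 95% interval was 0.38 for Mef2c and 0.41 for Eya4, the highest among the members. For Six5, which moved most in absolute size, the lower end was -0.58. For Myog, which drives terminal muscle differentiation, the log2 fold change was 1.48 (interval 1.40 to 1.55), and for the muscle-determining factor Myod1 it was 1.64 (interval 1.48 to 1.80). The median log2 fold change of the 6 members was 0.18, against 0.0015 over all genes tested.

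**Figure D3:**
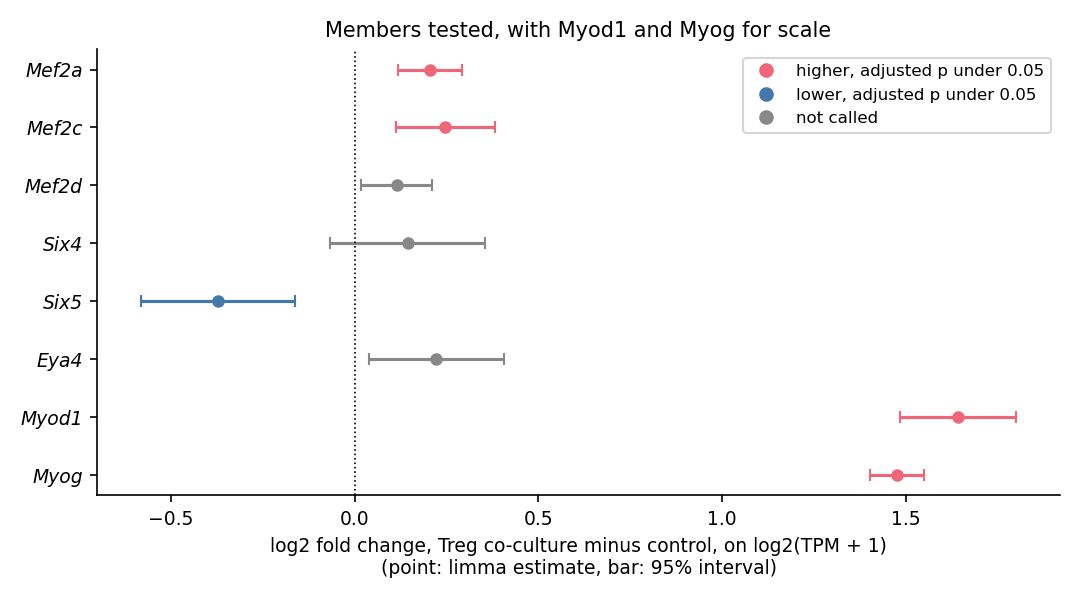
Log2 fold change (Treg co-culture minus control, on log2(TPM + 1)) of the 6 members tested, with Myod1 and Myog below them; points are limma estimates and bars 95% intervals. Mef2a and Mef2c (red) lie near 0.2, Six5 (blue) at -0.37, Myod1 at 1.64 and Myog at 1.48.

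The profiles most like each called member were found by the root-mean-square difference of centred log2(TPM + 1) values over the 6 libraries, as a description. For Mef2a they were the cytochrome P450 reductase gene Por (0.014) and the cohesin gene Rad21 (0.015), and for Mef2c the RNA-binding protein gene Tardbp (0.014) and Nepro (0.017). A profile like that of Mef2a was common, since 502 genes lay within 0.05 of it and 155 within 0.05 of Mef2c. For Six5, 11 genes lay within 0.05, with Jade2 (0.026) and Gm14322 (0.037) nearest.

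Among genes known as Mef2 targets, those that rose were muscle genes, and others fell or were not called. Of 23 listed, 20 were tested, of which 13 rose and 5 fell, with a median log2 fold change of 0.78. Over all genes tested, 19.8% were called higher and 18% lower, with a median of 0.0015. All 13 that rose are muscle genes. Besides Myog they included the intermediate filament gene Des (1.13, limma adjusted p = 3.74e-08), the M-band protein gene Myom2 (0.99) and Xirp1, an actin-binding protein of muscle (1.63). The creatine kinase Ckm, the methyltransferase Smyd1, the leiomodins Lmod2 and Lmod3, the calcium-coupling protein Stac3, the muscle kinase Srpk3, Smpx, Xirp2 and Myom1 rose by 0.57 to 1.57. Ckm stood at 9.54, 11.5 and 8.33 TPM in controls and 29.4, 31.2 and 31.5 TPM in Treg co-culture 1 to 3. In the other direction, the Notch-related Dlk1 (-0.74), the orphan receptor Nr4a1 (-0.42) and the Krüppel-like factors Klf4 (-0.39), Klf2 (-0.33) and Klf6 (-0.15) fell. Jun (-0.05) and Hdac9 (0.16) were not called, and Ppargc1a, Slc2a4 and Rtl1 lay below the filter. The list was assembled with earlier results of these data known and shares Myog and Ckm with the muscle markers, so its direction is not independent evidence.

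A MEF2 site was found in the promoter windows of 4 of the 17 Mef2 targets with a window, namely Xirp2, Srpk3, Klf2 and Jun. They are shown because they span the range of responses: Xirp2 and Srpk3 rose, Klf2 fell and Jun was not called. Each site is in capitals with up to 15 bases on either side, on GRCm38.p6 at chr2:67445913-67445952 (Xirp2, plus strand), chrX:73774323-73774362 (Srpk3, plus), chr8:72318929-72318968 (Klf2, plus) and chr4:95052231-95052270 (Jun, minus).
Xirp2: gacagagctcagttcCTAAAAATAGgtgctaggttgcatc
Srpk3: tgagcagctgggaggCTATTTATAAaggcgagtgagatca
Klf2: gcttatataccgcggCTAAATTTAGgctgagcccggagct
Jun: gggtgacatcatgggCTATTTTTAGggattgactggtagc
The site of Xirp2 had the same 10 letters as that of Mef2a. Among all genes tested that had a window, a MEF2 site occurred in 62 of 1931 that rose (3.21%), 41 of 1705 that fell (2.40%) and 111 of 6234 not called (1.78%). The E-box occurred in 65.1%, 70.5% and 66.3% of these groups, the MEF3 site in 3.42%, 3.75% and 4.14% and the CArG box in 2.74%, 1.17% and 1.35%. These shares are descriptions without a test.

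Of 13 genes known as targets of Six-family factors, 10 were tested, of which 5 rose and 2 fell, with a median log2 fold change of 0.13, beside 19.8% called higher and 18% lower among all genes. Myog, which is also counted among the Mef2 targets, Myod1 and the slow and cardiac troponin gene Tnnc1 (1.14) rose most, followed by the neurotrophic factor gene Gdnf (0.63) and the aldolase gene Aldoa (0.12). Myog and Myod1 are also on the list of skeletal muscle markers, all 9 tested genes of which rose. Gdnf stood at 1.26, 1.42 and 1.13 TPM in controls and 2.52, 2.49 and 2.52 TPM in Treg co-culture 1 to 3. The membrane linker gene Ezr (-0.23) and Dmpk fell. The call of Aldoa was lost under quantile normalization (0.05, limma adjusted p = 0.221) and with eBayes without the trend (0.12, limma adjusted p = 0.0638). Myf5, Sall1 and Eya1 lay below the filter.

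**Figure D4:**
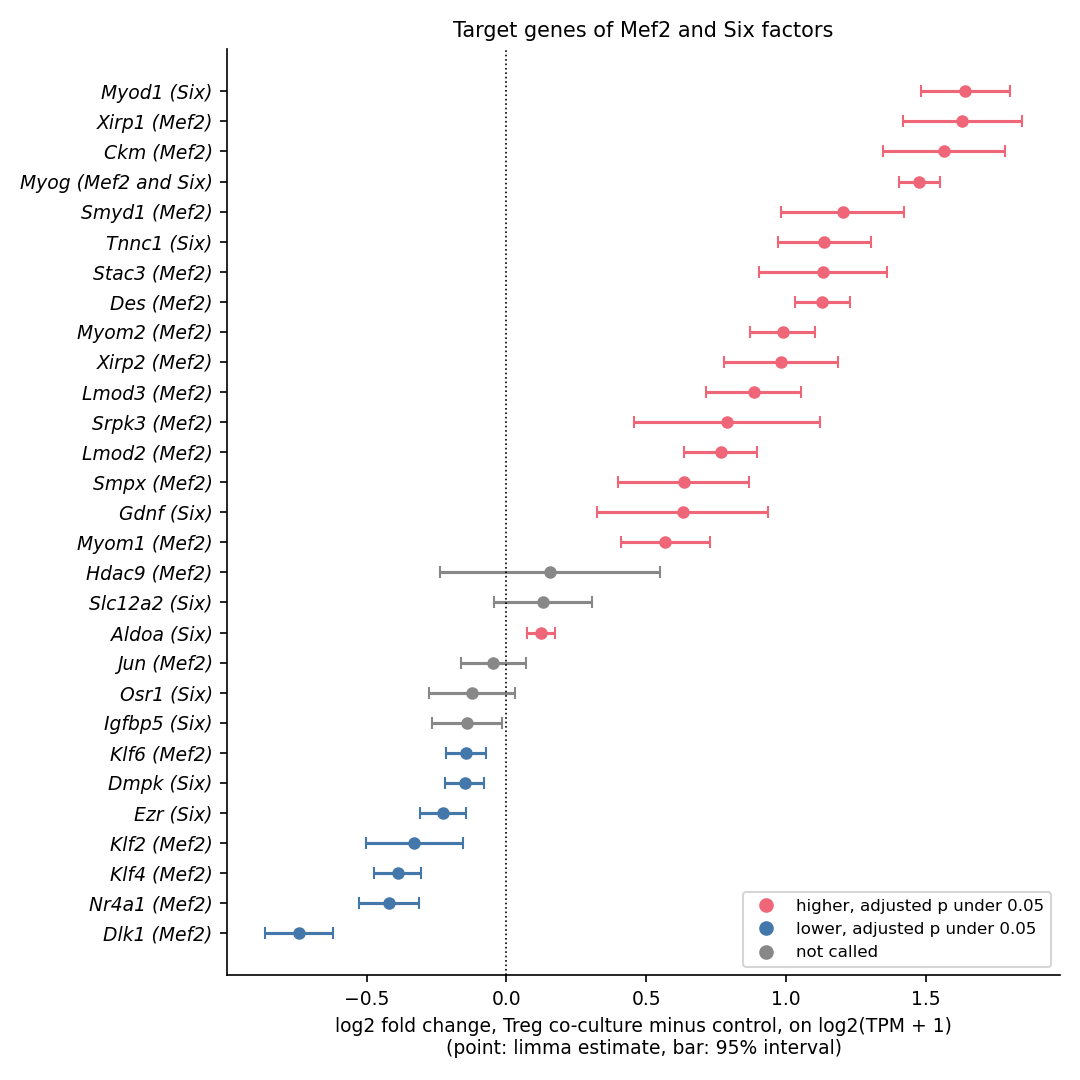
Log2 fold change (Treg co-culture minus control, on log2(TPM + 1)) of the tested target genes of Mef2 and Six-family factors, ordered by size; points are limma estimates and bars 95% intervals. Muscle genes make up most of the upper part, up to 1.64 for Myod1, with Gdnf (0.63) above the muscle gene Myom1 (0.57). Dlk1 is lowest at -0.74.

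The regulators of Mef2 activity moved in both directions. Of 33 tested among 34, 5 rose and 5 fell, with a median log2 fold change of -0.07, beside the 37.8% called among all genes. Among the class IIa histone deacetylases, which bind Mef2 proteins and repress their targets, Hdac5 fell (-0.20, limma adjusted p = 0.0420). It stood at 49.3, 58.5 and 55.3 TPM in controls and 46.3, 50.6 and 44.6 TPM in Treg co-culture 1 to 3, which overlapped, and with single libraries left out its call held only without control 1 or Treg co-culture 2. The call of Hdac5 was also lost with no filter (limma adjusted p = 0.0861) and with eBayes without the trend (limma adjusted p = 0.103). Hdac4 (0.09), Hdac7 (-0.07) and Hdac9 were not called. Of the kinases that send these deacetylases out of the nucleus, the calcium/calmodulin kinase Camk2a rose (1.01, limma adjusted p = 9.41e-05), from 2.67, 2.50 and 2.26 TPM in controls to 6.32, 6.41 and 5.33 TPM in Treg co-culture 1 to 3. The salt-inducible kinase Sik1 rose (0.44) and Camk2d fell (-0.18). Camk2g was called higher (0.14), a call lost without any 1 library except Treg co-culture 3 (without Treg co-culture 1, 0.09, limma adjusted p = 0.176).

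In the mitogen-activated kinase routes, Mapk7, which encodes ERK5, fell from 24.8, 25.9 and 24.5 TPM to 18.9, 20.5 and 18.3 TPM (log2 fold change -0.37, limma adjusted p = 0.00119). ERK5 phosphorylates Mef2 proteins, and Klf2 and Klf4 are known outputs of that route. ERK5 protein and its activity were not measured, and a link between the levels of these genes was not tested. Map2k3, a kinase that activates p38, rose (0.15; not called without Treg co-culture 1, Treg co-culture 2 or control 1), while the p38 gene Mapk14 (-0.07) and the muscle-enriched p38 gene Mapk12 (-0.21) were not called. In the calcineurin group, the inhibitor genes Rcan1 (0.27) and Rcan2 (-0.81) moved in opposite directions and the catalytic subunit Ppp3cc fell (-0.24), a call that held only without control 1 among the 6 libraries left out in turn. Rcan2 stood at 50.1, 49.2 and 53.4 TPM in controls and 30.6, 28.3 and 26.9 TPM in Treg co-culture 1 to 3. When Treg co-culture 1 or Treg co-culture 2 was left out, 3 regulators rose, since Camk2g and Map2k3 lost their calls. When control 2 or Treg co-culture 3 was left out, 3 fell, since Hdac5 and Ppp3cc lost theirs.

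**Figure D5:**
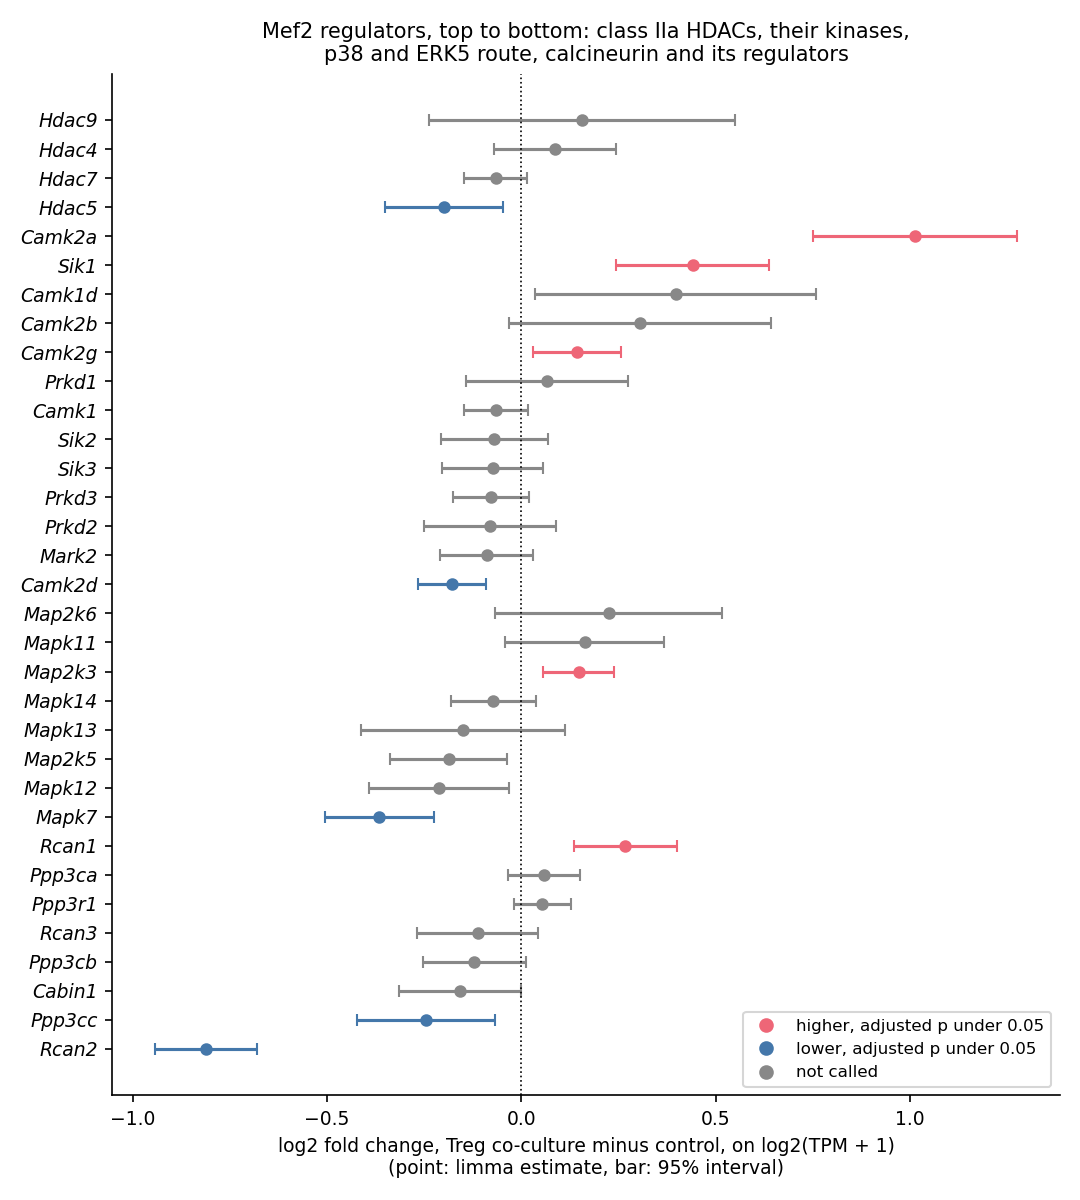
Log2 fold change (Treg co-culture minus control, on log2(TPM + 1)) of the 33 Mef2 regulators tested, grouped from top to bottom into class IIa deacetylases, their kinases, the p38 and ERK5 route, and calcineurin with its regulators; points are limma estimates and bars 95% intervals. Most intervals lie within 0.5 of 0, with Camk2a (1.01) and Rcan2 (-0.81) farthest out.

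Of 16 transcriptional cofactors of Mef2 and partners of Six-family and Eya proteins, 14 were tested, of which 4 rose and 2 fell, with a median of -0.02. Among all genes tested, 19.8% were called higher and 18% lower, so these counts were near the background. The acetyltransferase Kat2b, a coactivator of Mef2 and Myod1, fell (-0.35, limma adjusted p = 0.000998), as did the Groucho-family corepressor Tle2 (-0.62, limma adjusted p = 0.000807). Tle2 stood at 9.40, 9.84 and 9.88 TPM in controls and 5.14, 6.55 and 6.25 TPM in Treg co-culture 1 to 3. The related corepressor Tle3 (0.21), the chromatin remodelling ATPase Smarca4 (0.18), the muscle-associated remodeller subunit Smarcd3 (0.27) and Mcrs1 (0.17) rose. Smarcd3 and Mcrs1 lost their calls when control 1 or control 3 was left out, which left 2 that rose. Of the 6 libraries left out in turn, Smarcd3 kept its call only without Treg co-culture 2, and Mcrs1 only without control 2 or Treg co-culture 1. The acetyltransferases Ep300 (-0.13) and Crebbp (-0.04) were not called, and Dach1 and Dach2 lay below the filter.

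Endothelial cells and macrophages are other known sources of Mef2c. The 5 endothelial markers summed to 37.6 to 39.9 TPM in controls and 33.3 to 35.2 TPM after co-culture, where Kdr rose (0.27) and Tek (-0.36) and Cdh5 (-0.45) fell. The 6 macrophage markers summed to 86.6 to 93.5 TPM and 62.5 to 75.0 TPM, with Lyz2 lower (-0.55) and the other 5 not called. Skeletal muscle markers rose with Mef2a and Mef2c. The part of any of these cells in the levels of the members was not tested. Borcs8, the neighbour of Mef2b, fell (-0.23, limma adjusted p = 0.0173; not called without control 1, control 3 or Treg co-culture 1), and its RefSeq span ends 4125 bases from that of Mef2b.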

How the data were processed

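RNA was measured by sequencing of polyadenylated transcripts in 3 control and 3 Treg co-culture libraries, with groups and batches taken from the labels. The authors deposited TPM values, 1 column per library, each summing to 1000000. GRCm38, mm10 and GRCm39 are listed in the submitters' processing notes, without saying what each was used for. Aligner, counter, annotation and the treatment of reads shared by paralogs were not given in the sources used here. Separate values of paralogs carry that uncertainty. Of 22186 gene numbers, 21992 (99.1%) matched a symbol in the RefSeq table of GRCm38.p6. Promoter sequences and their coordinates are those of RefSeq on that build.

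The 12405 genes whose mean reached 1 TPM were tested on log2(TPM + 1), which understates fold changes of low genes, with limma 3.58.1 (R 4.3.3; mean-variance trend, Benjamini-Hochberg adjustment over all genes tested, threshold 0.05). SE and 95% intervals are limma's. Shares were tested by exact permutation over 20 arrangements. On simulated data for this comparison (12405 genes), 99 of 100 genes changed by 1 and 40 of 100 changed by 0.3 on the log2 scale were recovered, with 5 false calls. No other genes were changed, and those changed were drawn above a minimum level that Six4 did not reach. In the data a far larger share was called (37.8%), which alters the adjustment, so these rates do not give the recovery for the members. Changes of the members' size can be missed, at a rate that was not estimated. Python 3.11.15, pandas 2.3.3 and matplotlib 3.10.9 were used for tables and plots.

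The members, gene lists and tests were chosen with earlier results of these data known. Named genes are the 9 members, the 2 profiles nearest to each called member, up to 4 genes per list with the lowest adjusted p, all class IIa deacetylases and up to 3 abundant markers per cell type. Others, chosen after their values were seen, complete a group whose count is given. In the list of Six-family targets, 1 further gene is not reported here and is left out of its counts. The labels' batch field gives each library a batch, shared by 1 control and 1 co-culture library. Within a batch, residuals around the group mean correlated between the 2 libraries at 0.0115 (batch 1), -0.0146 (batch 2) and 0.00402 (batch 3). Alternatives were a pseudocount of 0.1, no filter or one of 5 TPM, quantile normalization, median-of-ratios scaling, eBayes without the trend, batch as a block, and each library left out.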

Additional observations from a re-analysis of the deposited data

How the results depend on the processing

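The 3 called members, Mef2a, Mef2c and Six5, kept their direction and their call under all 13 alternatives, with log2 fold changes of 0.19 to 0.23, 0.20 to 0.28 and -0.44 to -0.32. Six4 was called under none of them (limma adjusted p from 0.137 to 0.537). With the replicate block for batch, 2 members were higher and 1 lower, as without it, and the block changed no list's count by over 1.5 times. With no filter, 4 members were higher, 3 Mef2 regulators were lower and 2 cofactors and partners were higher. The last count was also 2 under quantile normalization and with eBayes without the trend. With each library left out in turn, the regulators gave 3 to 5 higher and 3 to 6 lower, the cofactors and partners 2 to 3 higher, and the neighbours of members, Dmpk and Borcs8, 1 to 2 lower, since Borcs8 lost its call without control 1, without control 3 and without Treg co-culture 1. Of 980 values of list genes under the alternatives, 44 lost a call, 14 gained one and 0 changed direction with a call. The low TPM of Mef2b, Six2 and Eya1 cannot be given counting intervals, because TPM keeps no depth.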
